A study of Homo sapiens with 4 samples.

Results

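The genes of the RNA polymerases, the Mediator complex and the general transcription factors were examined for chromatin occupancy by OGA, the enzyme that removes the sugar O-GlcNAc from nuclear and cytosolic proteins. Members were the genes named in either deposited list whose symbols begin with POLR1, POLR2, POLR3, GTF2, GTF3 or SUPT, or with MED or TAF and a digit, together with TBP. Pseudogenes with a name ending in P and a number were left out, which removed 1 gene. This gave 34 genes of 6757 named in the lists. OGA was profiled by CUT&Tag, in which an antibody directs a transposase to a protein which inserts sequencing adapters into nearby DNA. H9 cells with OGA knockdown gave 2 libraries, and H9 cells labelled WT, called control here, gave 2. H9 is an established human embryonic stem cell line. All 4 libraries came from naive cultures in PXGL, that is N2B27 with PD0325901, XAV939, Gö 6983 and human LIF, on a layer of mouse embryonic fibroblasts, with no other treatment. The labels name the knockdown shOGA and give neither the hairpin nor a control hairpin, and they do not say whether the replicates were separate cultures.

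The authors deposited 1 list of regions for each group, with 1334 regions in knockdown and 8977 in control, and each region joins peaks of replicates 1 and 2. A region has a position, a width and the gene with the nearest start site, but no read count, signal or score. Sequencing depth was therefore unknown, no region had a value per library, and none of the differences between the lists could be tested. The lists give neither RNA nor protein, so the knockdown itself and the naive state were not checked. Fewer cells with OGA at a site and less OGA per cell cannot be told apart.

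RNA polymerase I makes the large ribosomal RNA precursor, polymerase II makes messenger RNA, and polymerase III makes transfer RNA and other small RNAs. Polymerase II is brought to promoters by the general factors TFIIA, TFIIB, TFIID, TFIIE, TFIIF and TFIIH, of which TFIID consists of TBP and its associated TAF proteins. Mediator joins gene-specific activators to the polymerase, and SUPT proteins belong to elongation factors, to the histone chaperone FACT or to the coactivator SAGA. The carboxy-terminal domain of polymerase II is itself a known substrate for O-GlcNAc, which is background to the choice of genes and was not measured here.

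Of the 34 members, 6 were in the knockdown list, with 6 regions, and 33 were in the control list, with 41 regions. All subunit families had control regions, while the knockdown list held GTF2, MED, TAF and SUPT genes and no POLR1, POLR2, POLR3 or GTF3 gene. RefSeq holds 136 protein-coding genes that fit the rule, so 102 of them had no region in either list. A knockdown region was listed for 4.41% of these family genes (Wilson 95% interval 2.04 to 9.29) against 3.94% of all 20052 protein-coding genes. A control region was listed for 24.3% (17.8 to 32.1) against 21.4%. For regions annotated as promoter, within 3 kb of a start site, the shares were 2.94% (1.15 to 7.32) in knockdown, against 2.02%, and 22.1% (15.9 to 29.7) in control, against 14.7%. The intervals cover counting error only, and the shares describe lists without replicates. The families include 13 TAF11-like genes, near-identical copies on which reads may not be placed, and 0 of them had a region. Without them, 24.4% (17.7 to 32.7) of 123 family genes had a control promoter region.

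**Figure D1:**
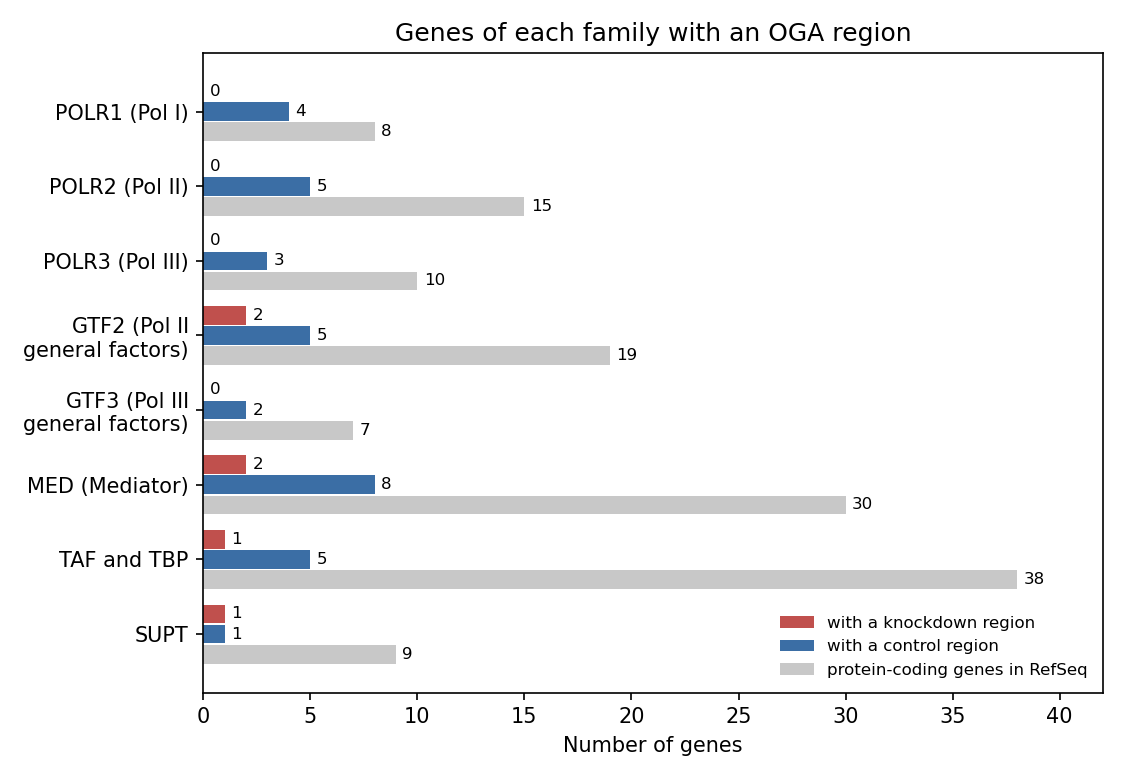
Number of genes in each family with a knockdown region, with a control region, and in RefSeq as protein-coding genes, with counts printed beside the bars. The knockdown list held 2 GTF2, 2 MED, 1 TAF and 1 SUPT gene, and the control list held members of every family, from 1 of 9 SUPT genes to 4 of 8 POLR1 genes.

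By family, control regions were listed for 4 of 8 POLR1 genes, 5 of 15 POLR2 genes and 3 of 10 POLR3 genes. The share over all protein-coding genes was 21.4%. The general factor families had 5 of 19 GTF2 genes and 2 of 7 GTF3 genes. Mediator had 8 of 30, TAF with TBP 5 of 38, or 5 of 25 without the TAF11-like genes, and SUPT 1 of 9. The Wilson intervals of these shares were wide, from 21.5% to 78.5% for POLR1 and from 14.2% to 44.4% for MED, and those of the families overlapped. The SUPT genes of the elongation factors and of FACT, namely SUPT4H1, SUPT5H, SUPT6H and SUPT16H, had no region in either list. The same held for 15612 of all 20052 protein-coding genes.

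The members in both lists were MED1, TAF13, GTF2A2, GTF2H5 and MED18. Each had 1 knockdown region, and each of these 5 regions lay wholly inside a control region of the same gene. Among all 921 knockdown regions that overlapped control, 83.9% lay wholly inside a control region. The median share of an overlapped control region that knockdown regions covered was 53.0% in the 5 members, against 40.6% over all 901. In the background 14.3% of genes with a control region also had a knockdown region, against 5 of 33 members here (15.2%, 6.65 to 30.9), so the members' share was close to that of the list as a whole.

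MED1 encodes a Mediator subunit that binds nuclear hormone receptors. Its knockdown region covered chromosome 17 from 39451022 to 39451654 (633 bp), and its control region 39449896 to 39451781 (1886 bp). The knockdown region reached 391 bp upstream and 241 bp downstream of the start site, against 518 and 1367 bp in control. It covered 33.6% of the control region, and its centre was 499.5 bp further upstream. The knockdown region thus lacked most of the downstream part of the control region.

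TAF13 encodes a TFIID subunit that pairs with TAF11 through a histone-like fold. The knockdown region lay on chromosome 1 from 109075862 to 109076329 (468 bp), inside a control region from 109075365 to 109076904 (1540 bp). It extended 326 bp upstream and 141 bp downstream of the start site, against 901 and 638 bp in control. At 30.4% it covered the smallest part of its control region among the 5 members, and the centres were 39.0 bp apart.

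GTF2A2 encodes the small subunit of TFIIA, which steadies TBP on DNA. Its knockdown region covered chromosome 15 from 59657418 to 59658099 (682 bp), against 59657318 to 59658605 (1288 bp) in control. The regions reached 584 bp upstream of the start site in knockdown and 1090 bp in control, while downstream they ended within 97 bp in knockdown and 197 bp in control. Both regions at this gene therefore lay mainly upstream of the start.

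GTF2H5 encodes the smallest TFIIH subunit, which is needed for DNA repair and is mutated in a form of trichothiodystrophy. Its knockdown region lay on chromosome 6 from 158169816 to 158170477 (662 bp), 1466 bp downstream of the start site. Control cells had 3 regions here, from 158167284 to 158169312 (2029 bp), from 158169778 to 158170490 (713 bp) and from 158170738 to 158172774 (2037 bp), separated by gaps of 465 and 247 bp. The knockdown region lay in the narrow middle region and covered 92.8% of it. The wide region over the GTF2H5 start, which also held the start of SERAC1 on the other strand, had no knockdown overlap. The middle region was narrower than 98.6% of control regions, so a narrow region carried the overlap at this gene.

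MED18 encodes a subunit of the Mediator head. Both of its regions were intergenic, at 31550 bp upstream of the start site in knockdown and 30947 bp in control. They lay on chromosome 1 from 28296432 to 28297490 (1059 bp) in knockdown and from 28296095 to 28298093 (1999 bp) in control. MED18 is only the gene with the nearest start, and it had no promoter region in either list.

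SUPT20HL1, an X-linked relative of SUPT20H, which encodes a SAGA subunit, was the member with a knockdown region and no control region. The region lay on the X chromosome from 24371845 to 24373010 (1166 bp), 11206 bp downstream of the start site and beyond the end of the gene. It was the widest knockdown region among the members, and 9.82% of all knockdown regions were wider.

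**Figure D2:**
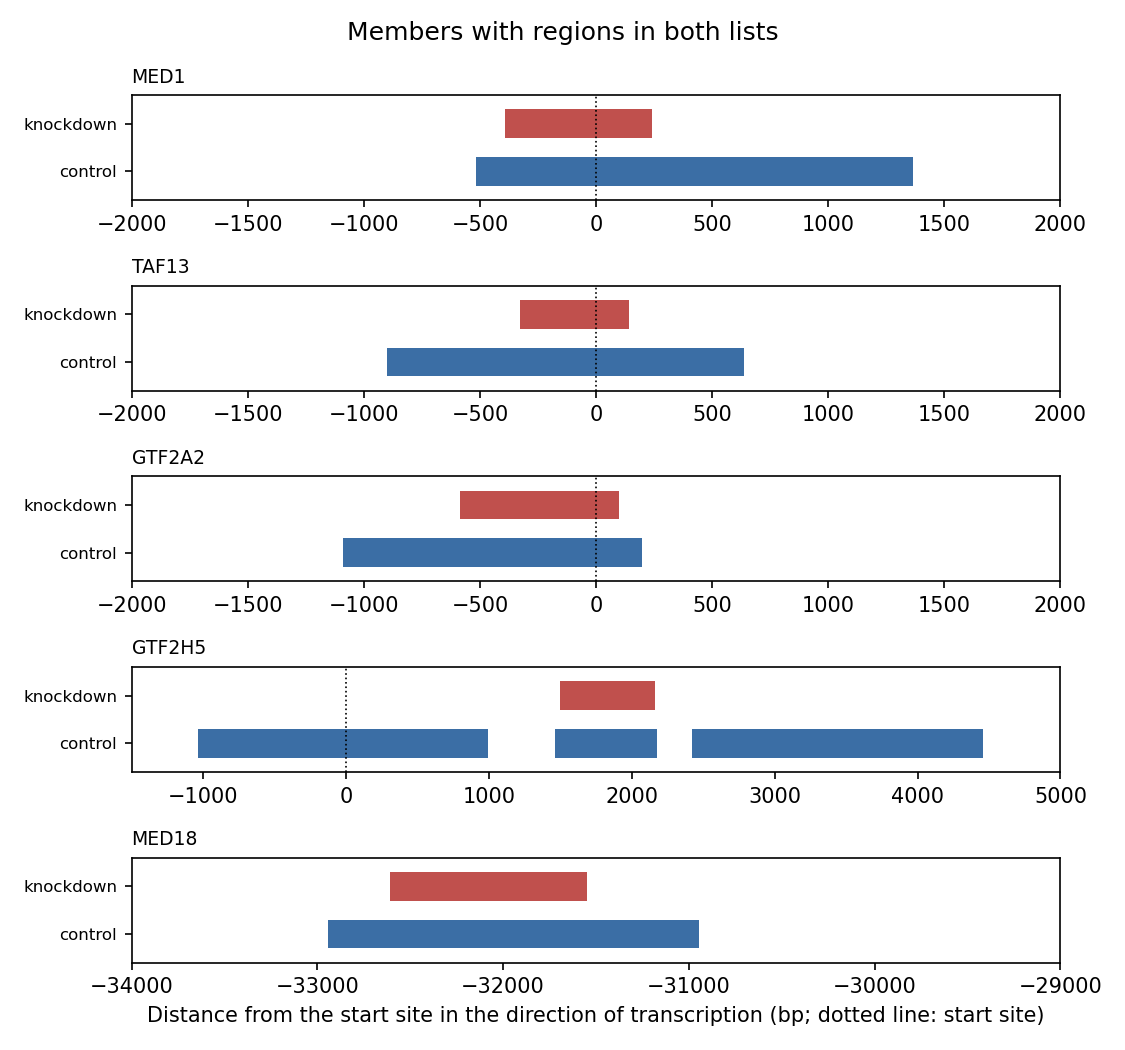
Knockdown regions (upper bar in each panel) and control regions (lower bar) of the 5 members in both lists, by distance from the start site in the direction of transcription, in bp; the dotted line is the start site, and the MED18 panel lies upstream of its gene. Each knockdown bar lies inside a control bar, and at GTF2H5 it lies in the middle of 3 control regions.

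The promoters of members with a control promoter region overlapped by a knockdown region are shown first. Each is the RefSeq sequence (GRCh38.p14) from 250 bases before to 50 after the start site, 5′ to 3′ on the strand of the gene. Capitals mark matches on either strand to the TATA box TATAAA, the CCAAT box, the GC box GGGCGG, the ETS factor motif CCGGAAG, the NRF1 motif GCGCATGCG, the YY1 motif AAGATGGC and the CpG-rich motif TCGCGAGA.
MED1 promoter, chr17:39451214-39451513, minus strand: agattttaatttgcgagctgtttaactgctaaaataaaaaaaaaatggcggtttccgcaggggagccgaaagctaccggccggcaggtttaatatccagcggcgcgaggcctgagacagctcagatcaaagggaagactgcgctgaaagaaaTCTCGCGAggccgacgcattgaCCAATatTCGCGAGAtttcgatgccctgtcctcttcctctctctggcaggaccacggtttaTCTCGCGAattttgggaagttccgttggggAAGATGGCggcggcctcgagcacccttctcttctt
TAF13 promoter, chr1:109075954-109076253, minus strand: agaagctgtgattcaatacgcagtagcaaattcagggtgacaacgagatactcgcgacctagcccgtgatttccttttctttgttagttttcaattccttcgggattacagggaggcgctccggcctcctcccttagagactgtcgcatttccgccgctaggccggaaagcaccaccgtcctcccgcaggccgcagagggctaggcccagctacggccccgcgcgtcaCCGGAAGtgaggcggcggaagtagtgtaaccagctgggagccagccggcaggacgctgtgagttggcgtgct
GTF2A2 promoter, chr15:59657466-59657765, minus strand: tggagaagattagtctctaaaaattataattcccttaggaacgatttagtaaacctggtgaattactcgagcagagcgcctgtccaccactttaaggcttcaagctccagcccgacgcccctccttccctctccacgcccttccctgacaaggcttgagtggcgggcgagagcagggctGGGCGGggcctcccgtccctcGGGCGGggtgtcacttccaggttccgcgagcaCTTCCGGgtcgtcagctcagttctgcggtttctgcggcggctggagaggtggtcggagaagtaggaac
GTF2H5 promoter, chr6:158168100-158168399, plus strand: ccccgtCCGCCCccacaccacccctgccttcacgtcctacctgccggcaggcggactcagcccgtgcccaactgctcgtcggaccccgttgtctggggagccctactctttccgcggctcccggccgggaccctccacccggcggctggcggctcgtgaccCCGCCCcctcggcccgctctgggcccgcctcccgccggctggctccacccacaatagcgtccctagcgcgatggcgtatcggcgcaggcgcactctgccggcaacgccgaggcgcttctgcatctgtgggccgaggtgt

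The knockdown and control regions each covered all 300 bases of the MED1, TAF13 and GTF2A2 windows. At GTF2H5 knockdown regions covered 0 of these bases and a control region covered all 300. MED1 had 3 matches to TCGCGAGA, which began 98, 69 and 15 bases upstream of the start, a CCAAT box between them and a YY1 match 15 bases downstream. TAF13 had 1 ETS match, 22 bases upstream of the start. GTF2A2 had 1 ETS match at 18 bases upstream and 2 GC boxes. GTF2H5 had 2 GC boxes, GC content of 73.7% and none of the other motifs. The 3 promoters covered in both lists thus shared no single motif of those searched. A match is a description of these letters and shows no binding.

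POLR1 genes had 4 control promoter regions, and 0 were overlapped by a knockdown region, against 10.1% of all control promoter regions. The widest was at POLR1G, which encodes a polymerase I subunit that pairs with the POLR1E product, on chromosome 19 from 45402579 to 45407509 (4931 bp). It joined 3 peaks of replicate 1 and 1 peak of replicate 2 and also held the start of PPP1R13L, so its width is not that of a promoter of POLR1G alone. POLR1C, whose product is shared with polymerase III, had a region of 1563 bp over its start and that of its divergent neighbour YIPF3. POLR1A, which encodes the catalytic subunit, had one of 1228 bp on chromosome 2 from 86104989 to 86106216. POLR1E had the narrowest control region of all members (546 bp, chromosome 9, 37485387 to 37485932), and it ended 16 bp upstream of the start site.

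POLR2 genes had 5 control regions, of which 4 were at promoters, and 0 were overlapped, against 10.0% of all control regions. POLR2A, which encodes the catalytic subunit and carries the carboxy-terminal domain, had a region of 2107 bp on chromosome 17 from 7483387 to 7485493. It reached 979 bp upstream and 1127 bp downstream of the start site and held the start of ZBTB4 as well. The POLR2D region (2603 bp) lay 214 bp upstream of its start, and the POLR2E region (804 bp) covered its start and only 64 bp downstream. POLR2L had the widest POLR2 region, on chromosome 11 from 837542 to 841450 (3909 bp), 1079 bp downstream of the start and reaching into the neighbouring gene CD151. POLR2D and POLR2L encode small subunits, and POLR2E and POLR2L are shared by all the nuclear polymerases. The region assigned to POLR2B, which encodes the second catalytic subunit, lay 61447 bp from its start in an exon of IGFBP7.

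POLR3 genes had 4 control regions in 3 genes, and 0 were overlapped, where the share of all control regions was 10.0%. With counts this small, no family is set apart from the list. POLR3A, which encodes the catalytic subunit, had a region of 1439 bp over its start on chromosome 10, from 78028939 to 78030377. POLR3GL encodes an alternative to the POLR3G subunit, and its region (2934 bp) lay at the other end of the gene, 13982 bp from the start and annotated as 3' UTR.

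Among general factors of polymerase II, GTF2I had the widest control region of all members, on chromosome 7 from 74658602 to 74663625 (5024 bp), 884 bp downstream of its start. GTF2I encodes TFII-I, a DNA-binding factor that also responds to signalling. It had a further 2 intergenic regions of 1200 and 1353 bp, 29205 and 13567 bp upstream. GTF2I has pseudogene copies, so read placement there is uncertain. GTF2B, which encodes TFIIB, had a region of 1313 bp that ended 94 bp upstream of the annotated start, and GTF2H4, a TFIIH subunit gene, one of 1259 bp over its start. The TFIIE and TFIIF genes GTF2E1, GTF2E2, GTF2F1 and GTF2F2 had no region in either list. The same held for 14 of all 19 GTF2 genes and for 15612 of all 20052 protein-coding genes. In the GTF3 family, which serves polymerase III, the TFIIIC genes GTF3C2 and GTF3C4 had regions. GTF3C2 had 3 within 5373 bp, of 1379, 1873 and 892 bp, and GTF3C4 had 1 of 2663 bp, 698 bp downstream of its start.

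Mediator genes had 8 control regions, 1 in each gene, between 1012 and 2126 bp wide. MED12 and MED13, which encode parts of the kinase module, had regions of 1824 bp on the X chromosome (71117086 to 71118909) and 1265 bp on chromosome 17 (62065450 to 62066714). MED19 had the widest, on chromosome 11 from 57711388 to 57713513 (2126 bp), a region that also held the start of TMX2. MED11 (2051 bp) and MED20 (1012 bp) encode head subunits, and MED15 (1789 bp), whose region began 730 bp downstream of the start, encodes a tail subunit. MED1 and MED18 were the Mediator genes with a knockdown overlap, at 2 of 8 regions, against 10.0% of all control regions. The scaffold gene MED14 and the gene MED17 were among 22 of 30 Mediator genes with no region in either list. Of all 20052 protein-coding genes, 15612 had none.

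TAF genes had 6 control regions in 5 genes, from 1386 to 2002 bp wide. TAF8 (1820 bp) and TAF13 encode TFIID subunits, while the TAF6L product (2002 bp) belongs to SAGA and TAF15 encodes an RNA-binding protein. TAF15 had a region of 1777 bp over its start and one of 1386 bp at 4018 bp upstream. The TAF6 region (1446 bp) lay 1502 bp upstream of the annotated transcript. SUPT3H, a SAGA gene, had a region of 951 bp at the start of a predicted transcript, within the neighbouring gene RUNX2.

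**Figure D3:**
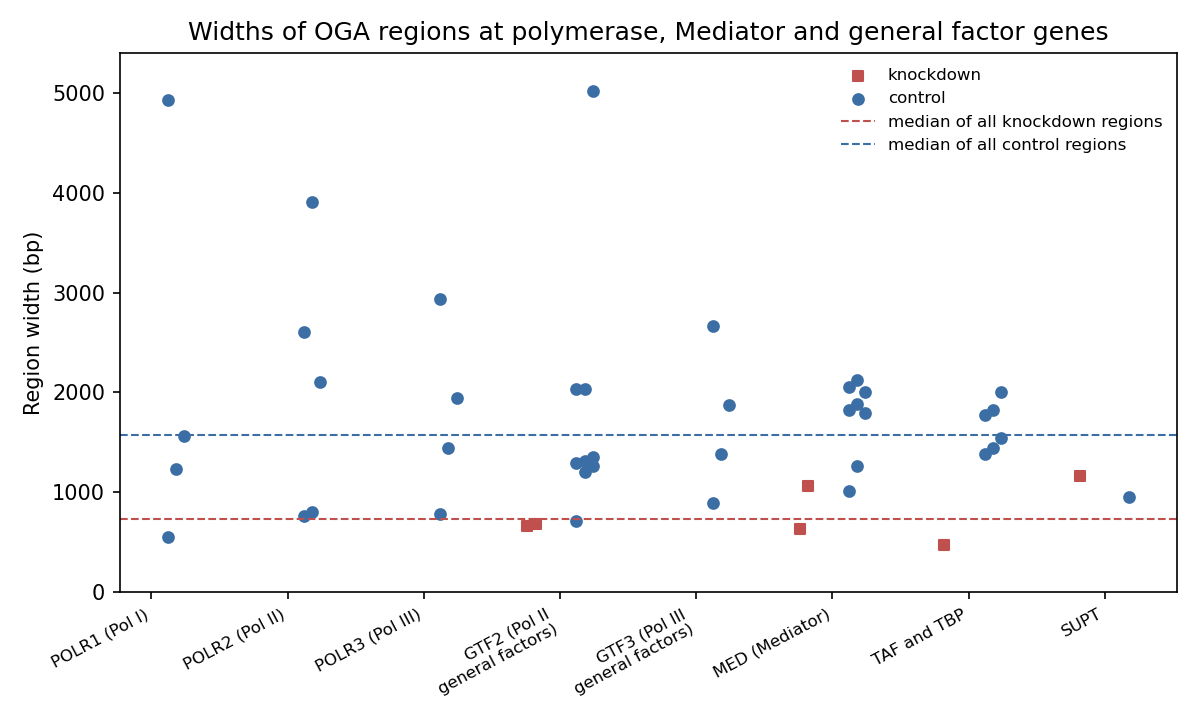
Width in bp of each member region by family, with squares for knockdown and circles for control; dashed lines are the medians of all regions in each list, 727 bp in knockdown and 1577 bp in control. The 6 knockdown squares lie between 468 and 1166 bp and the 41 control circles between 546 and 5024 bp.

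Widths of member regions were like those of the lists they came from. The median was 672 bp in the 6 knockdown regions, against 727 bp in all knockdown regions. In the 41 control regions it was 1563 bp (interquartile range 1259 to 2029), against 1577 bp (1245 to 2060) in all control regions. Of the member control regions 3, at GTF2I, POLR1G and POLR2L, joined more than 2 replicate peaks (7.32%), against 5.38% of all control regions. These were the widest of the members.

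Member control regions were mostly at promoters. Of 41 regions 34 were annotated as promoter (82.9%, 68.7 to 91.5). The share was 46.9% of all control regions and 53.9% of those assigned to a protein-coding gene. A start site was spanned by 22 (53.7%), against 28.5% of all control regions and 2073 of the 6103 assigned to protein-coding genes. Intergenic regions made up 4 of 41 (9.76%), against 20.2% of all control regions, those assigned to non-coding genes included. In knockdown 4 of 6 were at promoters (66.7%, 30.0 to 90.3), against 39.1% of all knockdown regions. These differences from the lists were not tested. More than 1 control region was listed for 5 of 33 members (15.2%), against 24.0% of all genes in the control list.

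**Figure D4:**
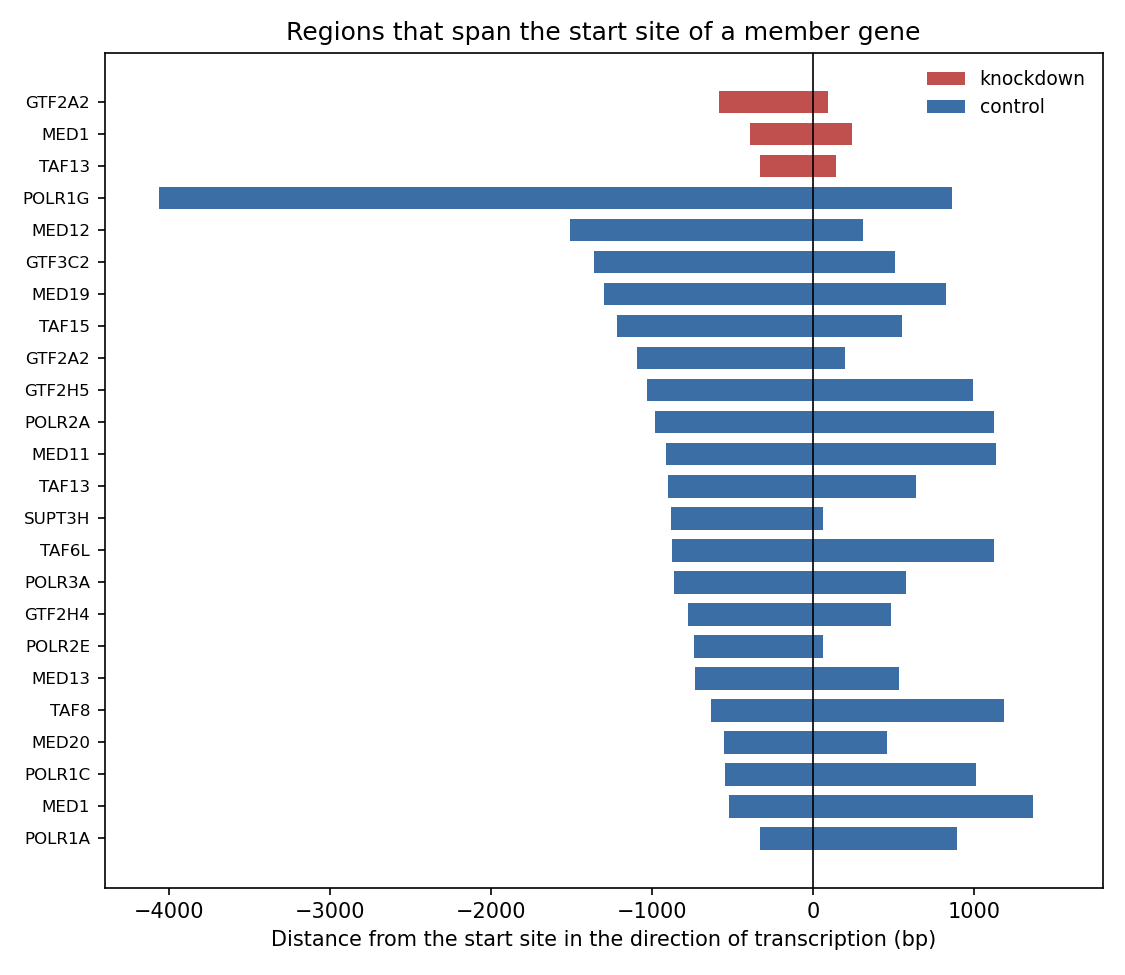
Extent of each region that spans a member's start site, in bp upstream (negative) and downstream (positive) in the direction of transcription, with 3 knockdown regions above 21 of the 22 control regions. In all 3 knockdown regions and in 14 of the 21 control regions drawn the upstream part is the longer.

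Regions over a start site lay more upstream than downstream. In the 3 knockdown regions the median reach was 391 bp upstream and 141 bp downstream, against 451.0 and 197.5 bp in all knockdown regions over a start site. In the 22 control regions it was 881.0 bp upstream and 607.0 bp downstream, against 887.0 and 625.5 bp in all such control regions. The downstream part was the longer in 7 of 22 member control regions (31.8%), against 37.9% in the list. POLR1A, POLR1C, POLR2A, MED1, MED11, TAF6L and TAF8 were these 7, and they were picked out after their values were seen. Of the 22 regions 6 (27.3%) also held the start of another gene, against 25.7% of all control regions over a start site.

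The overlap of the lists at member genes was near the background. Of all control regions, 10.0% were overlapped by at least 1 bp of a knockdown region, and of member control regions 5 of 41 were (12.2%, 5.32 to 25.5). At promoters it was 4 of 34 (11.8%, 4.67 to 26.6), against 10.1% of all control promoter regions. A promoter region in both lists was present for 4 of 30 members with a control promoter region (13.3%, 5.31 to 29.7), against 10.4% of all genes. Of knockdown regions, 5 of 6 overlapped control (83.3%, 43.6 to 97.0), against 69.0% of all. The interval of each of these shares included the value for the whole list.

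The overlapped member control regions measured 713, 1288, 1540, 1886 and 1999 bp, within the range of the 36 without overlap (546 to 5024 bp). In the whole control list the median was 1798.0 bp in overlapped and 1557.5 bp in other regions. Of the 10 widest member regions, from 2037 to 5024 bp, 0 were overlapped, and among the 1334 widest regions of the whole control list, 6 of them at members, 16.5% were. The 10 were at GTF2I, POLR1G, POLR2L, POLR3GL, GTF3C4, POLR2D, MED19, POLR2A, MED11 and GTF2H5. Among regions of 1577 bp or more 2 of 20 members were overlapped (10.0%), against 12.4% of all, and among narrower ones 3 of 21 (14.3%), against 7.63%. With 5 overlapped regions, the difference from the list rests on few regions and was not tested.

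For comparison with the promoters above, those with the widest region over a start site in the POLR1, POLR2, MED and TAF families are shown, a choice made after widths were seen. Of each window 0 bases lay in a knockdown region and all 300 in a control region, and capitals have the same meaning.
POLR1G promoter, chr19:45406394-45406693, plus strand: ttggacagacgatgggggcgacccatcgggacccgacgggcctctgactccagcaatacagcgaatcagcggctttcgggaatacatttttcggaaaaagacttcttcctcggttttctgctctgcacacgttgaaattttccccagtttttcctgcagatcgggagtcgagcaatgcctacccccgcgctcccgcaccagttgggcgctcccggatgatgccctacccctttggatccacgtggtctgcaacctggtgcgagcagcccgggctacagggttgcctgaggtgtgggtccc
POLR2A promoter, chr17:7484116-7484415, plus strand: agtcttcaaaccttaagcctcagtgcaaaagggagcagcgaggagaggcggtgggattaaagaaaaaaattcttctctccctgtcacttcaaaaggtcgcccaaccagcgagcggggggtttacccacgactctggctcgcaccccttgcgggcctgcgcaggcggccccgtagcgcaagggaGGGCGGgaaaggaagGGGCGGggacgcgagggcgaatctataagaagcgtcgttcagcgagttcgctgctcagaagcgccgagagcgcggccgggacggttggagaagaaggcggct
MED19 promoter, chr11:57712166-57712465, minus strand: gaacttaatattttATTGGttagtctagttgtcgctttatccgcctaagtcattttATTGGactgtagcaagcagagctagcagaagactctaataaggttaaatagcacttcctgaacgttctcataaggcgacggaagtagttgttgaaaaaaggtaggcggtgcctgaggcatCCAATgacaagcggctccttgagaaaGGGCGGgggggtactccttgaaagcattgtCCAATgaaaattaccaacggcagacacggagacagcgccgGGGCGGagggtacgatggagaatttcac
TAF6L promoter, chr11:62771146-62771445, plus strand: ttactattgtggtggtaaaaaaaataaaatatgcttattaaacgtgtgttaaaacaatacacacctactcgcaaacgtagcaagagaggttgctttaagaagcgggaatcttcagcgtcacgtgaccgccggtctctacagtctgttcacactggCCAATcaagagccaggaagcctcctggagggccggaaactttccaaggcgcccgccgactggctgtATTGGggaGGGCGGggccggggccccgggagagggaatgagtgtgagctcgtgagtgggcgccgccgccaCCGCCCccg

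None of the motifs searched was found in the POLR1G window, and POLR2A had 2 GC boxes, 67 and 52 bases upstream of the start. MED19 had 4 CCAAT boxes, of either orientation, and 2 GC boxes. TAF6L had 2 CCAAT boxes, 95 and 29 bases upstream, and 2 GC boxes.

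Promoter windows were available for 27 of the 34 members. GTF2I, MED13, POLR1E, SUPT20HL1, TAF15 and TAF8 are named only. Of the members with a control promoter region, 24 had a window. Not all of these windows have their start site in that region. The starts of GTF2B, GTF3C4, MED15, POLR2D, POLR2L and SUPT3H lay in no control region, and that of TAF6 lay in the CNPY4 region. Motif matches at these genes are counted below all the same. The ETS motif CCGGAAG was present in 8 of these 24 (33.3%), against 32 of 85 family genes with no control promoter region assigned to them (37.6%) and 14.2% of 15842 protein-coding promoters. The 85 include POLR1B, TBP, TAF1D and POLR3F, whose start sites lay in control regions assigned to other genes, and the 13 TAF11-like genes. The 8 were GTF2A2, GTF3C2, GTF3C4, MED11, POLR1C, POLR2D, POLR3A and TAF13. The YY1 motif AAGATGGC was in 5 of 24 (20.8%), at GTF3C2, MED1, POLR1C, SUPT3H and TAF6. It was in 8 of 85 family genes with no assigned control promoter region (9.41%) and in 3.92% of all.

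The CCAAT box was in 4 of the 24 members (16.7%), against 34.1% of family genes with no assigned control promoter region and 36.5% of all protein-coding promoters. Among all protein-coding genes with a control promoter region it was in 43.3%. GC boxes were in 15 of 24 (62.5%), 60.0% and 58.5% of the same sets, and TATAAA in 1 of 24, at GTF2B, 9.41% and 9.64%. The NRF1 motif was in 1 of 24 (4.17%), 5.88% of family genes with no assigned control promoter region and 2.76% of all. TCGCGAGA was in 2 of 24 (8.33%), at MED1 and POLR1C, against 3.53% and 1.79% of the same sets. Median GC content was 59.2% in the 24 members, 59.3% in family genes with no assigned control promoter region and 62.7% in all. These counts describe the letters of the windows, and none was tested.

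Genes that act with these complexes but fall outside the rule were counted from a list of 70. Of these, 2 had a knockdown region and 19 a control region (27.1%), against the 3.94% and 21.4% of protein-coding genes given above. For promoter regions the counts were 2 in knockdown and 16 in control (22.9%), against 2.02% and 14.7% of protein-coding genes. Both genes with a knockdown region belong to the super elongation complex, which releases paused polymerase II. ELL had a region of 420 bp in knockdown inside one of 1033 bp in control, close to its start site. AFF1, a scaffold gene of that complex, had 2 regions in knockdown and 5 in control. The overlapping pair, at a promoter on chromosome 4, ran from 86935671 to 86936847 (1177 bp) in knockdown and from 86935529 to 86936847 (1319 bp) in control. Another control promoter region of AFF1, from 87005405 to 87007263 (1859 bp), had no knockdown overlap, nor had its intronic control regions. The other knockdown region, in an intron, overlapped no control region. AFF4, of the same complex, had a control promoter region of 764 bp with no knockdown overlap.

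Regulators that hold the elongation kinase P-TEFb inactive had control promoter regions at HEXIM1 (2926 bp), HEXIM2 (2286 bp), LARP7 (1773 bp) and MEPCE (2068 bp). The kinase genes CDK9, CCNT1 and CCNT2 had none in either list, nor did the 4 NELF genes. The Mediator kinase module had regions at CDK19 and CCNC, 2 of 3 genes, beside MED12 and MED13. TFIIH subunits outside the rule had them at CCNH and ERCC3, 2 of 5 genes. The ERCC3 region lay in an exon, 22337 bp from its start. The Integrator complex had regions at INTS2 and INTS4, 2 of 14, and polymerase III factors at BRF1 and SNAPC5, 2 of 9. The polymerase I factors UBTF, RRN3 and TTF1 had 0 of 3.

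The assignment of a region to the nearest start site leaves out some family genes. RefSeq start sites of POLR1B, TBP, TAF1D and POLR3F lay inside control regions that the authors' list gives to another gene, and none of these 4 was named in either list. TBP encodes the TATA-binding subunit of TFIID, and its start lay in a region assigned to the divergent proteasome gene PSMB1 (chromosome 6, 170552753 to 170555133, 2381 bp). POLR1B encodes the second catalytic subunit of polymerase I, and its region was assigned to LOC105373562 (1656 bp). TAF1D, a subunit of the polymerase I factor SL1, lay in a region of C11orf54 (3087 bp), and POLR3F in one of DZANK1 (1562 bp). The annotated TAF6 starts lay in a CNPY4 region (2250 bp), apart from the region assigned to TAF6. Knockdown regions overlapped 0 of these 5 regions, against 10.0% of all control regions. Of 109 family genes with a listed start site, 22 lay in a control region under any name (20.2%, 13.7 to 28.7), against 12.9% of 15842 protein-coding genes.

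Members lay on many chromosomes. Chromosome 6 held 8 of the 41 control regions (19.5%), at GTF2H4, GTF2H5, MED20, POLR1C, SUPT3H and TAF8, against 7.54% of all control regions. Chromosome 17 held 6 (14.6%), against 7.27%. Of the 136 family genes, 11 lie on chromosome 6 and 10 on chromosome 17. Chromosome 5, with 21 family genes, 13 of them TAF11-like, held 0 control regions of members. These chromosomes were picked out after their values were seen. The 3 regions of GTF2H5 are neighbours and share their source, as do those of GTF3C2, so regions are not independent of each other.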

How the data were processed

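For each group the authors deposited 1 list of annotated regions, with position, width, annotation class, distance to the start site, transcript and gene. Per the submitters' processing notes, the tools were SEACR 1.3, Bowtie2 2.3.4.3, edgeR, DESeq2 and ChIPseeker 1.12.1, with GRCh38.p13 as the build. Their roles, the peak threshold and the antibody control are not given in the sources used here. Positions and widths are in base pairs, as deposited, and 1 repeated control line was used once. Groups follow the sample labels.

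Members and lists were chosen with earlier results of these data known. Named genes were all members with a knockdown region, the 10 widest and 2 narrowest control regions, and those widest or with most regions in each family; other members were named after their values were seen, and some results are not reported here. Overlap meant at least 1 bp and was checked on simulated regions. Gene names, neighbours and promoter windows came from RefSeq tables (GRCh38.p14); for each printed promoter the start site equals the one in the deposited list, and 57.5% of 5253 listed transcripts had their start site in the table. Shares carry Wilson 95% intervals. Family shares of protein-coding genes use 20052 RefSeq symbols. No test was run, since the lists hold no value per library. Scripts used scipy 1.17.1, pandas 2.3.3, matplotlib 3.10.9 and numpy 2.4.6 in Python 3.11.15.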

Additional observations from a re-analysis of the deposited data

How the results depend on the processing

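Width limits changed the overlap of member regions most. With only regions of 1577 bp or more, the control median, in both lists, 27 knockdown regions were left, 0 of them at members. The overlap was then bound to be low, and it tells nothing about members. Of 20 member control regions 0% were overlapped, against 0.4% of all. With knockdown regions of any width, 2 of 20 were overlapped (10.0%). The share of member knockdown regions had no value. Member genes with a promoter region were then 0 in knockdown, 16 in control and 0 in both. With the control list limited to its 1334 widest regions, the size of the knockdown list, 0% of the 6 member control regions and 0% of the 6 member knockdown regions overlapped, against 16.5% and 17.8% of all regions, and promoter genes were 5 in control and 0 in both. The 5 overlapped member control regions, at most 1999 bp wide, were not among these 6, so this limit fixed the 0%. The other 34 values, from centres within 500 bp, overlap by 50% of the shorter of the regions, regions of at least 200 bp, primary chromosomes, protein-coding members, promoters within 1 kb, any assigned region, all lines, promoter regions for widths and for the related genes, and the knockdown promoter count with equal numbers, stayed within the interval or within 1.5 times. With centres within 500 bp, 7.75% of all control and 52.2% of all knockdown regions were shared, against 12.2% and 83.3% of member regions. The member intervals, 5.32 to 25.5 and 43.6 to 97.0, included these list values. The MED1 centres were 499.5 bp apart, just within that limit. No paired analysis was possible because each list merges both replicates, and leaving out a replicate was not run for the same reason. Depth was unknown, so a gene without a region is not shown to lack OGA.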
